A study of Mus musculus with 6 samples.

Results

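In mouse hippocampus, 52 of 3733 listed genes were high in the second PIA library and in the first PIA+IL-27 library and lower in the other 4 libraries, including the replicate of each of those 2. The genes were chosen by their normalized read counts (read counts divided by 1 factor per library). The lower of PIA 2 and PIA+IL-27 1, with 1 added, had to be at least 2 times the highest of the other 4 libraries with 1 added, and at least 20. These counts chose the genes, so every level below is a description of that choice and carries no test. In all, 54 genes met both limits, and the zinc transporter Slc39a2 and the sodium-proton exchanger Slc9a5 were then left out with all symbols starting in Zfp, Slc or Kcn.

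The study sequenced total RNA labelled hippocampus in 3 groups of 2 libraries: Control, PIA and PIA+IL-27. The series' title spells out PIA as postnatal immune activation, and its design text calls the treated groups LPS and LPS+rIL-27. Lipopolysaccharide (LPS), from bacteria, sets off innate immune responses, and rIL-27 stands for the recombinant form of a cytokine of myeloid cells. Strain, age, dose, timing, number of animals and pooling do not appear in the labels, so any p-value covers only the spread between these libraries, which may be technical.

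The hippocampus holds the granule cells of the dentate gyrus and the pyramidal cells of the CA fields. It borders the subiculum and lies beneath the neocortex, whose excitatory neurons are stacked in layers with their own transcription factors and markers. Cux2 marks the upper layers, Rorb marks layer 4 and Cplx3 marks the deepest sublayer, 6b, while Prox1 marks dentate granule cells. In bulk tissue a higher level cannot be told apart from a larger share of the cells that make the RNA.

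For 4 of the genes the 120 bases before the transcription start are shown. They are 3 of the 5 genes with the largest ratio, and the layer 4 factor Rorb. The sequences are from RefSeq on the GRCm38.p6 build, written 5′ to 3′ on the gene's strand. All 4 genes lie on the minus strand, at chr13:113663677-113663796 for Hspb3, chr9:57606282-57606401 for Cplx3, chr6:92244651-92244770 for Trh and chr19:19111197-19111316 for Rorb. Capitals mark matches to the motifs searched, on either strand.
Hspb3: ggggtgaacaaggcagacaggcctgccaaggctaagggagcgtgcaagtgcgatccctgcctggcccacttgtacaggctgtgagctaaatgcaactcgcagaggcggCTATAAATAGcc
Cplx3: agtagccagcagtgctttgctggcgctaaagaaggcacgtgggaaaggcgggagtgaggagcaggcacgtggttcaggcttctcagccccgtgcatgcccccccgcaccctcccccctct
Trh: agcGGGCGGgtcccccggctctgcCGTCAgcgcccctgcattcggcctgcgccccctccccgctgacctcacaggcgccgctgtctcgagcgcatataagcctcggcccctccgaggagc
Rorb: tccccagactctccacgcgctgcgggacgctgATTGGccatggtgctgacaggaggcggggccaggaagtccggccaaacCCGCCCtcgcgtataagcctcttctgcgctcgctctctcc
The Hspb3 stretch held a TATA box (TATAAA) that overlapped a match to the MEF2 motif. In the Trh stretch lay a GC box (GGGCGG) and the core of the cAMP response element on the opposite strand (TGACG). The Rorb stretch held a GC box and a CCAAT box, both on the opposite strand, and the Cplx3 stretch held none of the motifs. A match is a description of the letters, and binding was not measured.

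The ratio in the rule had a median of 2.61 and ran from 2.005 to 12.1. It was at least 3 in 15 genes, at least 4 in 5 and at least 8 in 2, and 22 genes lay under 2.5. Just inside the limit were the transglutaminase Tgm3 at 2.005, the chromatin reader L3mbtl4 at 2.02 and the receptor tyrosine kinase Ltk at 2.03. Just outside it were the carboxypeptidase Cpz at 1.985, Gipc2 at 1.979 and the muscle chloride channel Clcn1 at 1.967. Many of the genes were low: the mean TPM (a transcript abundance scaled by the authors to library total and transcript length) ran from 0.323 to 43.6 with a median of 2.91, against 2.66 for all listed genes. It was over 10 for 14 genes and under 2 for 20. Fewer than 10 reads were counted in at least 1 library for 13 of the 52, and none was at 0 in any library.

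**Figure D1:**
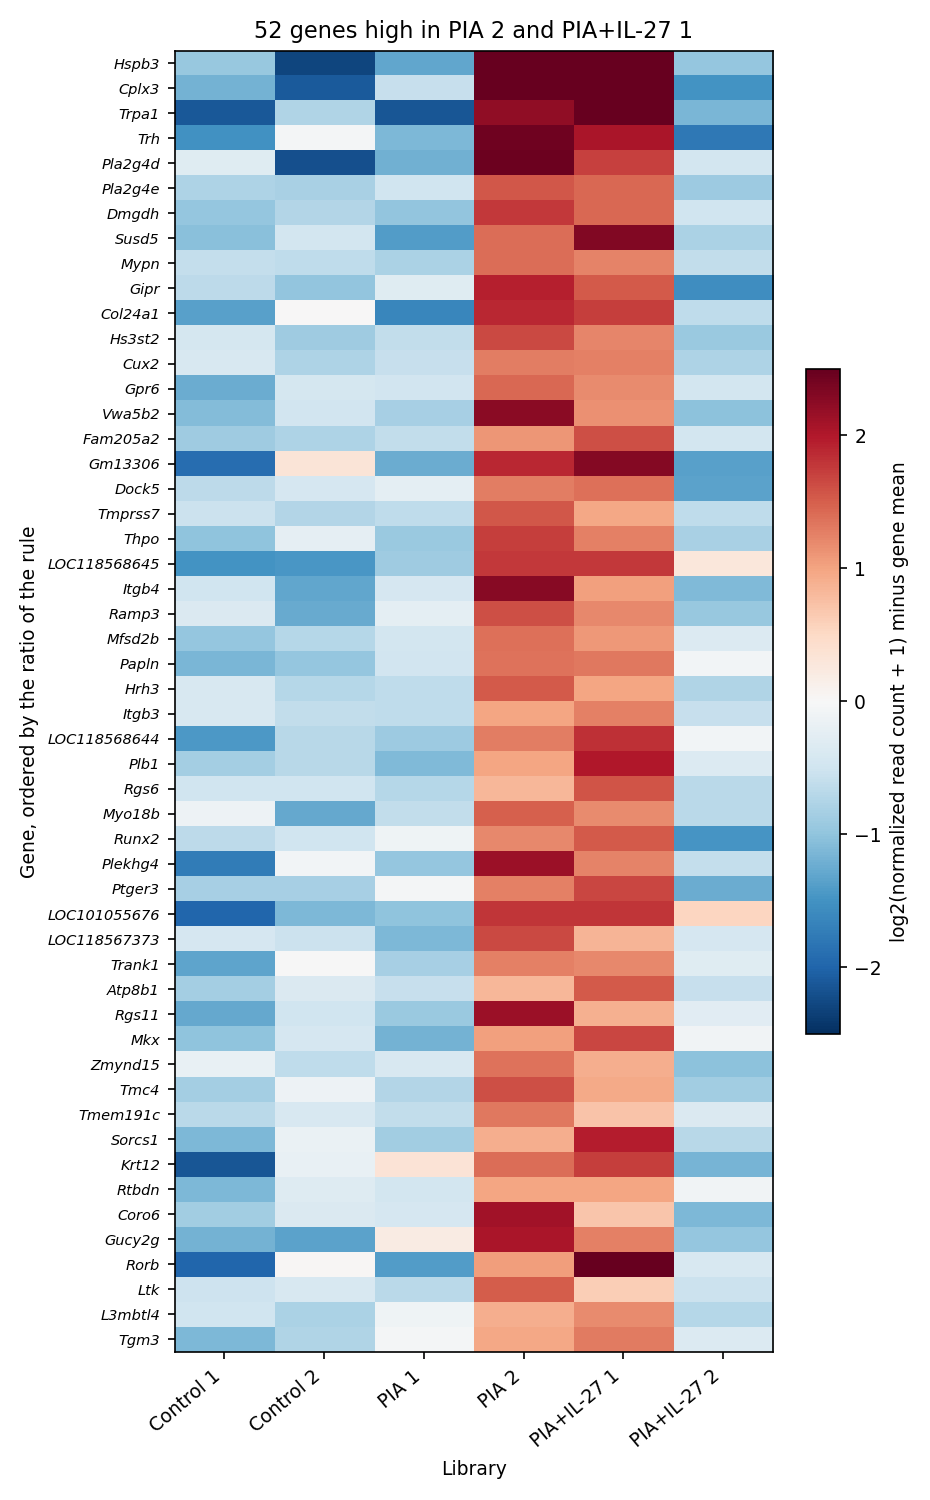
Heat map of the 52 genes (rows, by falling ratio) in the 6 libraries (columns); colour is log2(normalized read count + 1) minus the gene's mean over the libraries, and colours saturate beyond 2.5 in either direction. The columns of PIA 2 and PIA+IL-27 1 are red in every row, which the choice of the genes requires.

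Summed over the 52 genes, the level was 175.0 and 215.6 TPM in the Control libraries, 209.1 and 839.4 TPM with PIA, and 872.5 and 206.5 TPM with PIA+IL-27. On this scale, set over the whole library, the sums of both high libraries were close, and the 4 low ones lay near each other across all 3 groups. As a share of the reads in listed genes, the 52 took 3.69% in PIA 2 and 1.51% in PIA+IL-27 1, and 0.439 to 0.791% in the low libraries, so the closeness depends on the scaling. By the choice of the genes, replicates of 1 treatment thus lay further apart in these genes than Control, PIA 1 and PIA+IL-27 2 did from each other.

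The label given to the genes, that their libraries are marked by cortex and low in dentate markers, was set beside marker lists. The lists were chosen with earlier results of these data known. Their counts thus describe the label and are no independent check of it. Of the neocortical layer markers, 29 are among the listed genes, 4 of them among the 52. Of the 29, 13 were higher in each of PIA 2 and PIA+IL-27 1 than in all other libraries. The rule requires this of the 4 among the 52. Of the 25 outside the 52, 9 were higher in both and 1 was lower, the layer 5 factor Bcl11b. Of all 3733 listed genes 256 were higher, the 52 included, and 237 lower. The 25 neocortical markers outside the 52 summed to 174.8 and 326.4 TPM in Control, 217.4 and 317.0 TPM with PIA, and 752.6 and 200.3 TPM with PIA+IL-27. By that sum PIA+IL-27 1 stood above the rest, and PIA 2 lay just below Control 2. A single gene, Enpp2, sets that order: it is also on the choroid plexus list, and it was at 137.5 TPM in Control 2 and 11.94 TPM in PIA 2. The choroid plexus list summed to 14340 TPM in Control 2, against 44.5 to 2413 TPM in the other libraries. Without Enpp2 the 24 other markers summed to 164.8 and 188.9 TPM in Control, 192.5 and 305.0 TPM with PIA, and 711.5 and 179.8 TPM with PIA+IL-27, and both high libraries lay above the 4 low ones.

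Single neocortical markers outside the 52 were set beside the sum. Mef2c, a transcription factor of excitatory neurons, had normalized read counts of 2051 and 1695 in Control, 2763 and 5328 with PIA, and 21319 and 2126 with PIA+IL-27. Ntsr1, a neurotensin receptor that marks layer 6, had 1162 and 438 in Control, 984 and 2677 with PIA, and 1737 and 620.4 with PIA+IL-27. Both were highest in the same pair of libraries, by less than the limit of the rule. They belong to the 9 of the 25 markers that were higher in each of those libraries. Etv1, Deptor, Npr3 and Sulf1 instead lay below the highest of the low libraries in each. Mef2c alone held 383.4 of the 711.5 TPM summed without Enpp2 for PIA+IL-27 1, and 86.2 of the 305.0 TPM for PIA 2. The height of that sum thus rests largely on Mef2c in PIA+IL-27 1.

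Of the dentate granule cell list, 8 genes are listed. Of these, 4 were lower in both libraries than in the other 4 (Prox1, Dsp, Lct and Sema5a), and none was higher in both. Stxbp6 and Rfx3 were highest in PIA+IL-27 1, at normalized read counts of 709 and 817, but not in PIA 2, at 168 and 245. Prox1 had normalized read counts of 589.7 and 1296 in Control, 627 and 96.0 with PIA, and 172 and 1358 with PIA+IL-27. The desmosomal gene Dsp had 54.9 and 123 in Control, 72.1 and 6.55 with PIA, and 16.7 and 59.2 with PIA+IL-27. Prox1 and Dsp were thus lowest in the libraries in which the 52 genes were high. The whole dentate list summed to 20.97 and 66.46 TPM in Control, 26.0 and 11.91 TPM with PIA, and 41.36 and 61.25 TPM with PIA+IL-27, so by its sum PIA 2 was the lowest, while PIA+IL-27 1 lay above Control 1 and PIA 1. In PIA+IL-27 1, 19.51 TPM of that sum came from Stxbp6, a syntaxin-binding protein. Both listed CA1 genes (Fibcd1 and Ndst4), 8 of 14 ependymal genes and 6 of 18 choroid plexus genes were also lower in both libraries, and 4 of 14 meningeal genes were higher. Of all 3733 listed genes, 237 were lower in both and 256 higher. Of 4 listed CA2 and CA3 genes, 0 were lower in both and 0 higher. The CA2 and CA3 list summed to 15.53 and 33.7 TPM in Control, 19.61 and 8.24 TPM with PIA, and 26.23 and 36.24 TPM with PIA+IL-27. Summed without Enpp2, the neocortical markers were thus higher in both libraries, while the dentate sum was below all other libraries in PIA 2 only. Of the 52 genes themselves 44 are on none of the lists, and they are named here by the libraries they are high in. What part the makeup of the tissue had in their levels was not tested.

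Among the 52, the layer markers were Cux2, Rorb, Hs3st2 and Cplx3. Cux2, a homeobox factor of upper-layer neurons, had normalized read counts of 746 and 577 in Control, 664 and 2400.2 with PIA, and 2370.1 and 584 with PIA+IL-27. Its 4 low libraries lay within 1.29-fold of each other, and its high libraries were nearly equal. Rorb, a nuclear receptor of layer 4 that is also on the subiculum list, had 30.4 and 125 in Control, 46.1 and 255 with PIA, and 802 and 92.2 with PIA+IL-27. Its level in PIA+IL-27 1 was 1.65 higher on the log2 scale than in PIA 2, and its low libraries were spread 4.01-fold.

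Hs3st2, a heparan sulfate sulfotransferase on the layer 5 list, had normalized read counts of 385 and 283 in Control, 341 and 1657 with PIA, and 1225 and 274 with PIA+IL-27. At a mean of 41.5 TPM it was among the most abundant of the 52. Cplx3, a complexin that binds the vesicle fusion machinery, had 24.5 and 12.4 in Control, 37.5 and 418 with PIA, and 325 and 19.4 with PIA+IL-27. With a ratio of 8.48 it was second to Hspb3.

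**Figure D2:**
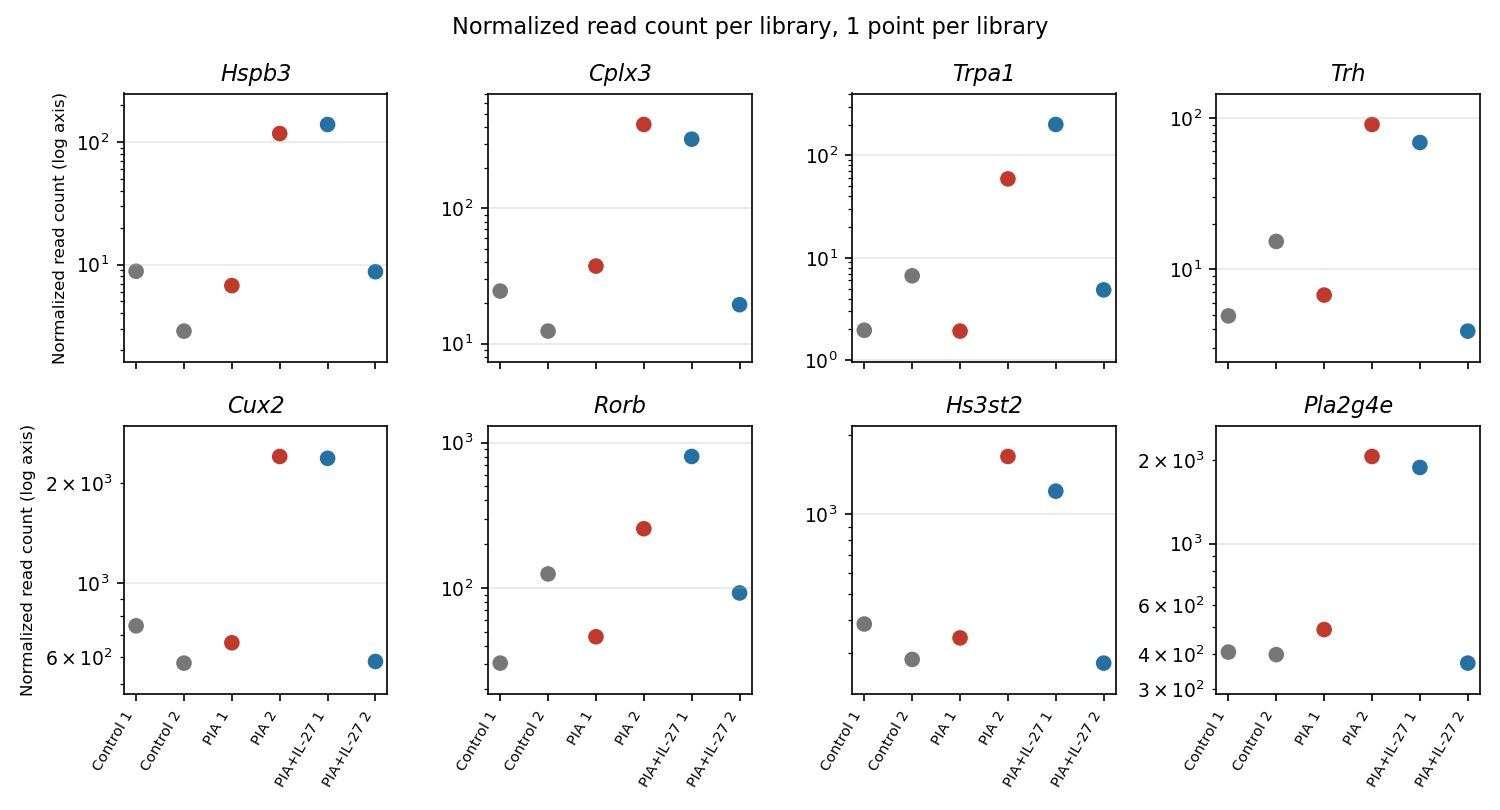
Normalized read counts (log axis, which differs between panels) of 8 of the genes in each library, 1 point per library, grey for Control, red for PIA and blue for PIA+IL-27. In each panel PIA 2 and PIA+IL-27 1 lie above the other 4 points; for Hspb3 they are at 118 and 139.7, and the others at 8.82 or lower.

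Secreted signals among the 52 were Trh, the precursor of thyrotropin-releasing hormone, and Thpo, thrombopoietin, a cytokine of platelet formation. Trh had normalized read counts of 4.90 and 15.2 in Control, 6.73 and 90.6 with PIA, and 68.8 and 3.88 with PIA+IL-27. Thpo had 11.8 and 20.9 in Control, 12.5 and 84.0 with PIA, and 60.5 and 13.6 with PIA+IL-27. In the low libraries both rested on few reads. Of the list of neuropeptides and their receptors, 14 genes are listed, and Trh was the single one among the 52, while 6 were higher and 3 lower in both libraries than in the other 4.

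The receptors that couple to G proteins were Gipr, Hrh3, Gpr6 and Ptger3, with Ramp3 as an accessory protein of calcitonin-family receptors. Gipr, the receptor for the gut hormone GIP, had normalized read counts of 96.0 and 76.2 in Control, 123 and 587 with PIA, and 438 and 50.5 with PIA+IL-27. Hrh3, the presynaptic histamine H3 receptor, had 161 and 129 in Control, 137 and 614 with PIA, and 421 and 125 with PIA+IL-27. Ramp3, which is also on the thalamic list, had 172 and 92.4 in Control, 187 and 683 with PIA, and 509.9 and 115 with PIA+IL-27. These 3 were each somewhat higher in PIA 2 than in PIA+IL-27 1.

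Gpr6, a receptor that raises cAMP without a known ligand and marks striatal neurons, had normalized read counts of 17.6 and 31.4 in Control, 30.7 and 119 with PIA, and 99.1 and 31.1 with PIA+IL-27. Ptger3, the EP3 receptor for prostaglandin E2, had 31.3 and 31.4 in Control, 54.8 and 136 with PIA, and 180.4 and 23.3 with PIA+IL-27. Unlike the others it was higher in PIA+IL-27 1 than in PIA 2. Of 11 listed amine and acetylcholine receptors, Hrh3 was the single one higher in both libraries, and 5 were lower (Htr2c, Htr3a, Drd5, Chrna5 and Chrnb4).

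Downstream of such receptors, the 52 hold Rgs6 and Rgs11, which speed the switching off of inhibitory G proteins. Rgs6 had normalized read counts of 533 and 534 in Control, 460.3 and 1341 with PIA, and 2252 and 478 with PIA+IL-27. Rgs11 had 87.2 and 150.4 in Control, 111 and 943 with PIA, and 396 and 175 with PIA+IL-27. The pair leaned to opposite libraries: PIA+IL-27 1 exceeded PIA 2 by 0.75 on the log2 scale for Rgs6 and lay below it, at -1.25, for Rgs11. Gucy2g, a receptor-type guanylyl cyclase, had 10.8 and 9.52 in Control, 29.8 and 109 with PIA, and 62.6 and 12.6 with PIA+IL-27.

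Trpa1, a cation channel opened by irritants, had normalized read counts of 1.96 and 6.67 in Control, 1.92 and 58.9 with PIA, and 200.2 and 4.85 with PIA+IL-27. Of the 52 it was the most uneven between the high libraries, at 1.75 on the log2 scale for PIA+IL-27 1 over PIA 2. In Control 1 and PIA 1 it had 2 reads each, the lowest read count of any of the 52.

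Lipid enzymes formed a further group, of which 2 are neighbours on chromosome 2. Pla2g4e, a calcium-dependent enzyme that makes N-acyl phosphatidylethanolamines, had normalized read counts of 407 and 399 in Control, 491 and 2059 with PIA, and 1880.0 and 372 with PIA+IL-27. Pla2g4d, a cytosolic phospholipase A2 whose gene lies 20.2 kb from it, had 9.79 and 1.90 in Control, 4.80 and 72.0 with PIA, and 42.8 and 8.74 with PIA+IL-27. Both were high in the same libraries at very different levels, with mean TPM of 25.8 and 0.923. Plb1, a phospholipase B, had 12.7 and 14.3 in Control, 10.6 and 48.0 with PIA, and 98.0 and 18.4 with PIA+IL-27.

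Adhesion and matrix genes were Itgb3, Itgb4, Col24a1, Papln and Susd5. Itgb3, the beta chain of the vitronectin receptor, had normalized read counts of 119 and 103 in Control, 101 and 313 with PIA, and 377 and 105 with PIA+IL-27. Itgb4, the beta chain of the laminin receptor of epithelia, had 68.6 and 39.0 in Control, 72.1 and 473 with PIA, and 199 and 44.7 with PIA+IL-27. Itgb3 was the higher of the 2 in PIA+IL-27 1 and Itgb4 in PIA 2. The fibrillar collagen gene Col24a1 had 4.90 and 14.3 in Control, 3.84 and 54.6 with PIA, and 49.0 and 8.74 with PIA+IL-27. Susd5, a transmembrane protein with a sushi domain, had 18.6 and 28.6 in Control, 14.4 and 106 with PIA, and 200.2 and 22.3 with PIA+IL-27.

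Beside Cux2 and Rorb the transcription factors were Runx2, known from bone, and Mkx, known from tendon. Runx2 had normalized read counts of 12.7 and 14.3 in Control, 19.2 and 49.1 with PIA, and 61.5 and 6.80 with PIA+IL-27. Mkx had 28.4 and 42.8 in Control, 25.0 and 118 with PIA, and 186 and 54.4 with PIA+IL-27. Both were higher in PIA+IL-27 1 than in PIA 2, as was the sorting receptor Sorcs1, with 109 and 210.4 in Control, 129.7 and 444 with PIA, and 928 and 147 with PIA+IL-27.

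Several genes known from muscle, epithelium or mitochondria rather than neurons were also among the 52. Hspb3, a small heat shock protein, had the largest ratio, with normalized read counts of 8.82 and 2.86 in Control, 6.73 and 118 with PIA, and 139.7 and 8.74 with PIA+IL-27. Mypn, a protein of the muscle sarcomere, had 16.7 and 16.2 in Control, 14.4 and 69.8 with PIA, and 62.6 and 16.5 with PIA+IL-27. Dmgdh, the mitochondrial dimethylglycine dehydrogenase, had 3.92 and 4.76 in Control, 3.84 and 31.6 with PIA, and 25.0 and 5.83 with PIA+IL-27. The low libraries of Mypn lay within 1.15-fold of each other. Krt12, a keratin of the cornea, had 4.90 and 21.9 in Control, 31.7 and 67.6 with PIA, and 85.5 and 10.7 with PIA+IL-27, with low libraries spread 5.55-fold.

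Among the most abundant were also Tmem191c, a membrane protein, and Trank1, a large protein with ankyrin repeats. Tmem191c had normalized read counts of 163 and 196 in Control, 169 and 650.2 with PIA, and 424 and 200.0 with PIA+IL-27. Trank1 had 695 and 1729 in Control, 973 and 4129 with PIA, and 3964 and 1401 with PIA+IL-27. Control 2 and PIA+IL-27 2 stood above Control 1 and PIA 1 for Trank1, and both stayed well under the high libraries. Vwa5b2, a protein with a von Willebrand factor A domain, had 186 and 287 in Control, 225 and 1906 with PIA, and 880.1 and 196 with PIA+IL-27.

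Of the remaining genes, Tgm3, L3mbtl4 and Ltk stand at the limit of the rule. Tgm3, a transglutaminase of hair and skin, had normalized read counts of 22.5 and 29.5 in Control, 49.0 and 99.3 with PIA, and 125 and 39.8 with PIA+IL-27. L3mbtl4 had 36.2 and 29.5 in Control, 48.0 and 98.2 with PIA, and 119 and 31.1 with PIA+IL-27. For both, PIA 1 was the highest of the low libraries and set the ratio. Ltk had 23.5 and 25.7 in Control, 21.1 and 100.4 with PIA, and 53.2 and 23.3 with PIA+IL-27, and its ratio was set by PIA+IL-27 1, since its low libraries lay within 1.21-fold.

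Cytoskeletal and signalling genes among the rest were Dock5, Myo18b and Coro6. Dock5, an activator of the small GTPase Rac, had normalized read counts of 46.0 and 54.3 in Control, 61.5 and 180.0 with PIA, and 193 and 28.2 with PIA+IL-27. Myo18b, an unconventional myosin, had 102 and 45.7 in Control, 73.0 and 316 with PIA, and 254 and 69.9 with PIA+IL-27. Coro6 had 11.8 and 17.1 in Control, 16.3 and 98.2 with PIA, and 36.5 and 9.71 with PIA+IL-27. Dock5 was close to equal in the 2 high libraries, while Coro6 was far higher in PIA 2.

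The other genes encode membrane proteins, a protease and a vitamin-binding protein. Tmprss7, a transmembrane serine protease, had normalized read counts of 17.6 and 15.2 in Control, 16.3 and 78.6 with PIA, and 52.1 and 16.5 with PIA+IL-27. Its low libraries lay within 1.15-fold of each other. Mfsd2b, an exporter of sphingosine 1-phosphate in blood cells, had 7.84 and 9.52 in Control, 11.5 and 43.6 with PIA, and 35.5 and 12.6 with PIA+IL-27. Atp8b1, a phospholipid flippase, had 7.84 and 11.4 in Control, 9.61 and 27.3 with PIA, and 44.8 and 9.71 with PIA+IL-27, at the lowest mean level of the 52 (0.323 TPM). Tmc4 had 8.82 and 15.2 in Control, 9.61 and 53.5 with PIA, and 33.4 and 8.74 with PIA+IL-27. Rtbdn, a riboflavin-binding protein of the retina, had 37.2 and 65.7 in Control, 59.6 and 165 with PIA, and 164 and 77.7 with PIA+IL-27, nearly the same in both high libraries.

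For 7 of the 52 the counts were not whole numbers in 5 or 6 libraries, as happens where reads are shared between genes, and their levels are uncertain. They were Gm13306, Fam205a2, Papln, Zmynd15, LOC101055676, LOC118568644 and LOC118568645. Gm13306, the most abundant of the 52 at 43.6 TPM, had normalized read counts of 60.7 and 291 in Control, 97.0 and 859 with PIA, and 1133 and 90.3 with PIA+IL-27. Its TPM values gave other gaps between libraries: 21.0 and 23.7 in Control, 34.7 and 67.5 with PIA, and 105.1 and 9.33 with PIA+IL-27. Fam205a2 lies 364 kb from Gm13306 on chromosome 4. It had normalized read counts of 126 and 136 in Control, 153 and 503 with PIA, and 718 and 169.9 with PIA+IL-27. Also listed are the related loci Gm13305 and Fam205a1, which lie outside the 52 and did not share the pattern. Gm13305 had 24.5 and 0.952 in Control, 22.1 and 2.18 with PIA, and 0 and 8.74 with PIA+IL-27, and Fam205a1 had 1.96 and 15.2 in Control, 1.92 and 2.18 with PIA, and 36.5 and 4.85 with PIA+IL-27. LOC101055676 had 33.3 and 60.9 in Control, 66.3 and 469 with PIA, and 468 and 194 with PIA+IL-27, so its PIA+IL-27 2 library lay between the low and the high ones. LOC118568645 had 167 and 171 in Control, 254 and 1605 with PIA, and 1608 and 576 with PIA+IL-27, again with PIA+IL-27 2 in between. LOC118568644 had 71.5 and 119 in Control, 103 and 472 with PIA, and 691 and 184 with PIA+IL-27. The matrix gene Papln had 22.5 and 25.7 in Control, 36.5 and 132 with PIA, and 129 and 48.5 with PIA+IL-27, and Zmynd15 had 14.7 and 10.5 in Control, 12.5 and 44.7 with PIA, and 32.3 and 7.77 with PIA+IL-27. A further unnamed locus, LOC118567373, had whole counts in all libraries, with 14.7 and 13.3 in Control, 8.65 and 64.4 with PIA, and 36.5 and 14.6 with PIA+IL-27.

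The 2 high libraries were compared with each other, a ratio that the rule did not set. PIA 2 was the higher for 32 genes and PIA+IL-27 1 for 20. The levels lay within 1.5-fold of each other for 33 genes, PIA+IL-27 1 was over 1.5-fold higher for 8 and over 1.5-fold lower for 11. The median difference of PIA+IL-27 1 from PIA 2 was -0.14 on the log2 scale, against 1.32 over all listed genes, of which 69.1% were higher in PIA+IL-27 1. The lowest was Coro6, an actin-binding coronin, at -1.40, with 98.2 in PIA 2 and 36.5 in PIA+IL-27 1 as normalized read counts. With 1 library on each side this comparison has no replicate check, and the rule favours genes that are alike in the 2, because it limits the lower one.

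**Figure D3:**
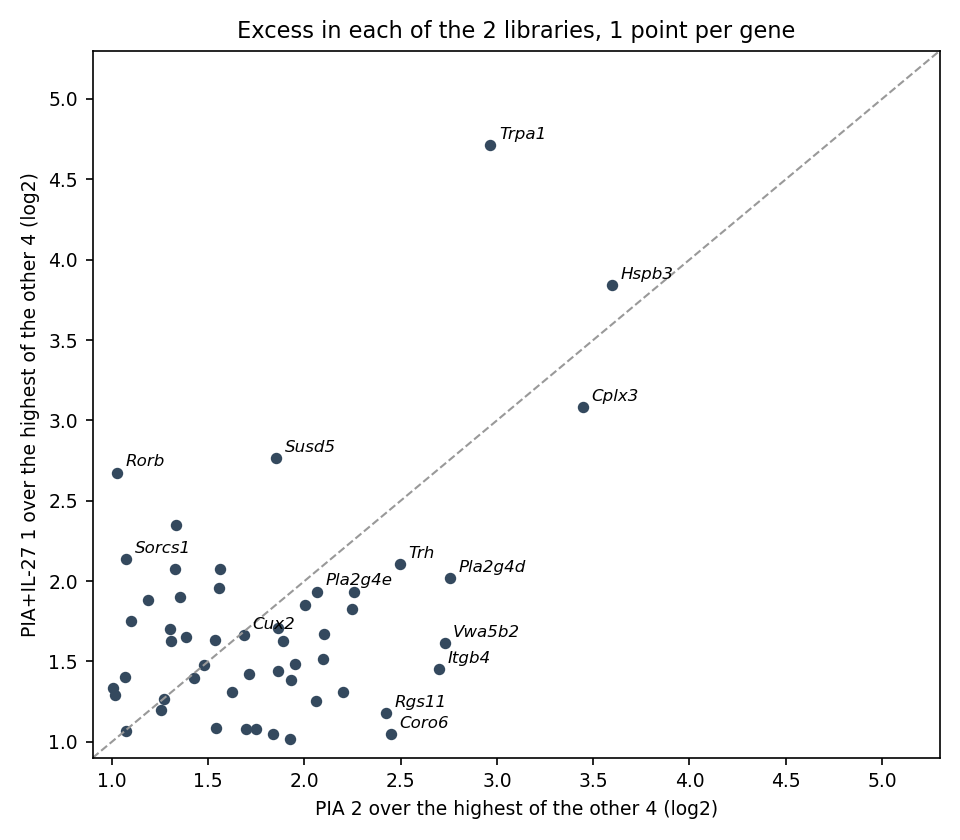
Each point is 1 of the 52 genes; the axes give the log2 ratio of PIA 2 (horizontal) and PIA+IL-27 1 (vertical) to the highest of the other 4 libraries, with 1 added to each normalized read count, and the dashed line marks equal ratios. Hspb3 and Cplx3 lie far out near the line, Trpa1 lies above it, and Vwa5b2, Itgb4, Rgs11 and Coro6 lie below it.

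Among the other 4 libraries the genes were steadier than the listed genes at large. The fold from the lowest to the highest of the 4 had a median of 1.96, against 3.55 over all listed genes, and 27 of the 52 lay within 2-fold, against 8.92% of the listed genes. The Control libraries differed by over 2-fold for 11 of the 52, against 68.8% of the listed genes. PIA+IL-27 2 against PIA 1 had a median of 0.05 on the log2 scale over the 52, against 0.84 over all. The rule sets the highest of the 4 against the high libraries and so favours a small spread; these values are a description. Control 1, Control 2, PIA 1 and PIA+IL-27 2 were the highest of the 4 for 11, 17, 12 and 12 genes, and the lowest for 20, 10, 11 and 11. Control 1 was the lowest of the 4 most often.

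Each of the study's group comparisons has 1 of the high libraries on a side, or 1 on both. In the authors' deposited table, whose limits are a log2 fold change of 1 or more in size with a Q value up to 0.05, 43 of the 52 were higher in PIA than in Control and 0 lower, where 18.0% of all listed genes were higher and 34.4% lower. For PIA+IL-27 against Control the same table had 45 higher and 0 lower, beside 13.3% and 8.57% of all. For PIA+IL-27 against PIA it had 3 higher and 2 lower (Itgb4 and Coro6), beside 61.4% and 18.2%. The authors' deposited table gave median log2 fold changes over the 52 of 1.40, 1.40 and -0.03 in PIA against Control, PIA+IL-27 against Control and PIA+IL-27 against PIA. All genes in that table met its limits in some comparison, both comparisons with Control share the Control libraries, and the rule used the same values, so nothing follows from these shares.

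Replicates overlapped for most of the genes. PIA 1 and PIA 2 lay above each Control library for 17 of the 52, where 17.2% of the listed genes did, and PIA+IL-27 1 and 2 did so for 14, beside 23.0%. The rule already sets PIA 2 and PIA+IL-27 1 above each Control library. The counts for the 52 thus turn on PIA 1 and PIA+IL-27 2 alone, unlike the shares of listed genes, so nothing follows from setting them side by side. Between PIA+IL-27 and PIA the rule makes every gene overlap.

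Fitted by edgeR's quasi-likelihood test over 3216 genes, all 52 included, 0 of the 52 passed an adjusted p (Benjamini-Hochberg) of 0.05 in PIA against Control, where 0.218% of the tested genes did, and 0 in PIA+IL-27 against PIA, where 0.435% did. At an unadjusted p under 0.05 the same fit held 13 and 0 of the 52, beside 6.28% and 18.7% of the tested genes. For PIA+IL-27 against Control it held 11 of the 52 at that limit, beside 2.86%. The same libraries chose the 52, so the numbers passing and the p-values below describe that choice and are no independent test. After adjustment 1 of the 52 passed in PIA+IL-27 against Control, Trpa1, beside 0.311% of the tested genes. Its log2 fold change was 4.53 (SE 1.20) with an adjusted p of 0.049 in edgeR, and the groups overlapped, since Control 2 was above PIA+IL-27 2. Without PIA+IL-27 1 its log2 fold change was 0.16, with an edgeR adjusted p of 0.998, and DESeq2 gave it an adjusted p of 0.798 with all libraries. Over all alternatives its adjusted p in edgeR, DESeq2 or limma ran from 0.0292 to 1, and it was under 0.05 with no filter on low counts and without PIA+IL-27 2 only.

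Medians over the 52 followed the 2 libraries, as the choice of the genes requires. The rule sets the genes above 0 against Control and makes the medians fall without the high library, so these values are a description. In PIA against Control the median log2 fold change was 1.54, against -0.68 over all tested genes, and all 52 were above 0. Without PIA 2 it was -0.01, with 24 of 52 above 0. In PIA+IL-27 against Control it was 1.43, against 0.55 over all, and without PIA+IL-27 1 it was -0.04, with 26 of 52 above 0. In PIA+IL-27 against PIA it was -0.11, against 1.17 over all, and it was 1.27 without PIA 2 and -1.55 without PIA+IL-27 1. A fit without one of these libraries leaves its group with 1 library, which is then assumed to vary like the rest.

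**Figure D4:**
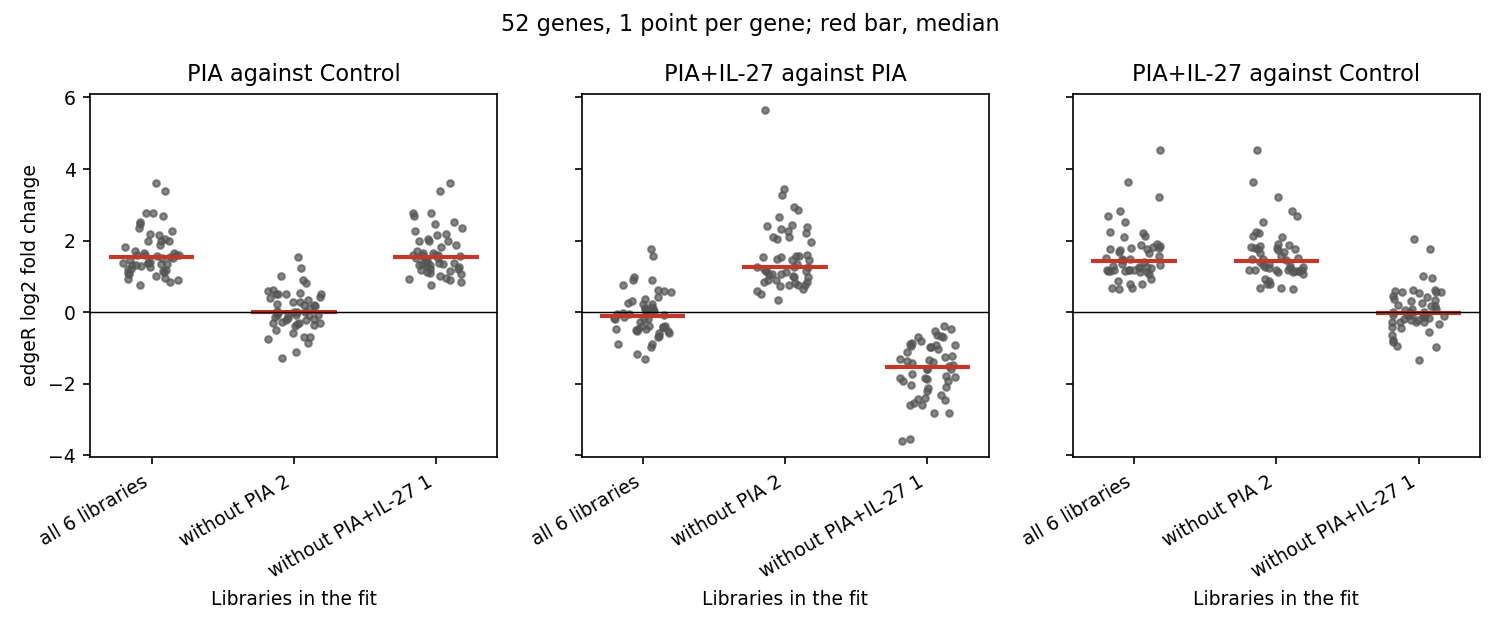
edgeR log2 fold changes of the 52 genes (1 point per gene, red bar at the median) in the 3 group comparisons, with all 6 libraries, without PIA 2 and without PIA+IL-27 1. The medians of 1.54 and 1.43 against Control become -0.01 and -0.04 without the high library of the group concerned. The choice of the genes requires medians above 0 against Control and a fall without that library.

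Single genes were also fitted in both comparisons with Control. For Cplx3 the edgeR log2 fold change was 3.62 (SE 1.04, adjusted p 0.102) in PIA and 3.22 (SE 1.02, adjusted p 0.235) in PIA+IL-27. For Hspb3 it was 3.39 (SE 1.13, adjusted p 0.279) and 3.64 (SE 1.14, adjusted p 0.227) by the same edgeR test. The more abundant Cux2 had 1.21 (SE 0.83) and 1.16 (SE 0.83), and Pla2g4e had 1.66 (SE 0.85) and 1.48 (SE 0.85). None of these 4 passed in edgeR after adjustment, and values in these libraries chose them, so the p-values are a description. Without PIA 2 the log2 fold changes in PIA against Control were 1.02 for Cplx3, 0.20 for Hspb3, 0.28 for Pla2g4e and 0.0049 for Cux2.

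How many genes met the rule depended on the scaling of the libraries. With TMM factors computed over the listed genes instead of the authors' factors, 26 genes met it, of which 14 were among the 52. In the edgeR fit the same change moved the median of all tested genes from -0.68 to 0.00 in PIA against Control, from 0.55 to -0.02 in PIA+IL-27 against Control, and from 1.17 to -0.04 in PIA+IL-27 against PIA. The median over the 52 was then 2.07, 0.60 and -1.54 in those 3 comparisons, above that of all tested genes against Control and below it against PIA. Such factors move all genes of a library alike, and the rule sets the contrast with Control, so this order is no check. Under TMM 52 of the 52 were above 0 in PIA against Control and 46 in PIA+IL-27 against Control.

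Features that the rule did not use were set beside those of all listed genes, without a test. The GC content of the longest coding transcript in GENCODE had a median of 52.6% over 48 of the 52, against 44.8% over 3575 listed genes. For all listed genes higher in both libraries it was 53.4%, and for those lower in both it was 49.8%. Transcript length was alike, at medians of 3669 and 3604 bases. GC content thus differed between the 52 and the listed genes at large, and its part in the levels was not tested.

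Of the 52, 49 matched the RefSeq gene table by identifier. They lay on most of the autosomes, though not on all, with at most 6 on 1 chromosome (chromosome 11). Of 48 with a chromosomal position, 9 lay within 1 Mb of another of the 52. Neither this count nor the spread over chromosomes was set beside that of all listed genes, so no clustering can be read from them. Beside the pairs already given, Ltk lies 406 kb from Pla2g4e, Papln 601 kb from Rgs6, and Thpo 119 kb from Vwa5b2. Plekhg4 overlaps at an end with Slc9a5 in the RefSeq table, which met the limits of the rule. Plekhg4 had normalized read counts of 14.7 and 49.5 in Control, 25.9 and 231 with PIA, and 124 and 34.0 with PIA+IL-27, and Slc9a5 had 259 and 254 in Control, 216 and 1214 with PIA, and 542 and 202 with PIA+IL-27. No source used here says whether counting used strand, so reads in the stretch where the 2 genes overlap cannot be told apart. That stretch runs from base 105369640 to 105369881 of chromosome 8, and both genes had whole counts in all 6 libraries.

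Promoter windows from 250 bases before to 50 bases after the start were found in RefSeq for 37 of the 52 genes, as 48 windows, and the motifs were searched on both strands. The full cAMP response element (TGACGTCA) was in 6.25% of the windows (those of Col24a1, Gpr6 and Hs3st2), against 2.41% of the windows of listed genes and 1.79% of all 32851. Its core TGACG, which the full element contains, was in 31.2%, against 24.0% and 20.8%. The TATA box was in 22.9%, against 10.3% and 13.6%. The GC box was in 41.7%, against 45.5% and 35.7%, and CCAAT in 35.4%, against 38.6% and 37.4%. The E-boxes CAGCTG and CATCTG were in 14.6% and 12.5%, against 17.4% and 14.5% of the windows of listed genes and 16.3% and 17.2% of all windows. MEF2 matches, which can overlap a TATA box as in Hspb3, were in 4.17%, against 2.35% and 3.19%. The full cAMP element rests on 3 windows and MEF2 on 2.

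Outside the 52, the listed genes whose log2(normalized read count + 1) followed the mean profile of the 52 most closely over the 6 libraries included Ostn, BC147527, Slc39a2 and Fstl4, with Pearson correlations of 0.989, 0.966, 0.962 and 0.957. The secreted peptide Ostn was at 0 in all 4 low libraries and had normalized read counts of 8.73 in PIA 2 and 13.6 in PIA+IL-27 1, both under the lower limit of the rule. Fstl4, a follistatin-like protein, had 86.2 and 96.2 in Control, 124 and 226 with PIA, and 319 and 99.0 with PIA+IL-27, which fell short of the ratio. The points of these correlations are the same 6 libraries that chose the genes.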

How the data were processed

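Total RNA of mouse hippocampus was sequenced in 6 libraries, grouped by the labels' treatment. Per the file headers, the authors deposited an expected count (read count) per gene and library, a normalized signal (the normalized read count, made from the rounded-up read count with library factors of 0.917 to 1.05), TPM and FPKM. The authors also deposited log2 fold changes with their p-value and Q value for the 3 comparisons. FPKM was not used. Aligner, counter, build, strand setting and test: not given in the sources used here. Each of the 3733 listed genes passes the authors' limits in some comparison, so adjusted p-values cover a selected table. Reads in the listed genes numbered 641672 to 1593441 per library, 2.14 to 5.61% of the transcripts by TPM, and 11.3 to 13.3% of the counts were not whole.

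The genes and the marker lists were chosen with earlier results of these data known. Genes are named where they are on a list, among the 10 with the largest ratio or the 10 with the highest mean TPM, next to the limit of 2, called by edgeR, or among the 5 outside genes closest in profile; the other genes named by their role were picked after their values were seen. Some genes outside the 52 that this choice of names takes are not reported here. Counts were rounded and fitted in edgeR 4.0.16 (R 4.3.3) by the quasi-likelihood test, all 6 libraries together, scaled by the authors' factors, after filterByExpr, with a threshold of 0.05; the script was tested on simulated data. The coefficient of variation was 0.597, and the fit used a spread common to genes of like level. Alternatives were TMM and RLE factors, no filter, a replicate block, DESeq2 1.42.0, limma 3.58.1 on log2(TPM + 1), each library left out, and other limits of the rule. GC content and length came from GENCODE and promoters and positions from RefSeq, both on GRCm38; no coordinate of the files was used.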

Additional observations from a re-analysis of the deposited data

How the results depend on the processing

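The counts of the 52 genes past the threshold were 0 in PIA against Control and in PIA+IL-27 against PIA under every alternative run. In PIA+IL-27 against Control the count of 1 (Trpa1) became 0 with TMM, RLE, the replicate block, DESeq2 and limma, and ran from 0 to 1 with 1 library left out. Trpa1 then had log2 fold changes of 0.16 to 5.62.

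Genes called over the whole table were 7, 14 and 10 in PIA against Control, PIA+IL-27 against PIA and PIA+IL-27 against Control. At an unadjusted p under 0.05, TMM held 117, 591 and 118 genes and RLE 111, 579 and 110. Past the adjusted threshold the genes called became 0, 0 and 0 with TMM and with RLE. They became 2, 4 and 1 with DESeq2, and 2 in the last comparison with limma. With 1 library left out they ran from 0 to 7, 0 to 7 and 0 to 7. With fewer libraries the fit has fewer degrees of freedom; otherwise the cause was not tested.

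The median over the 52 changed sign only with a library left out: it ran from -0.012 to 2.26 in PIA against Control, from -1.55 to 1.27 in PIA+IL-27 against PIA, and from -0.036 to 2.13 in PIA+IL-27 against Control. Single genes turned in the same fits: Trpa1 in PIA against Control ran from -1.12 to 3.86, and in PIA+IL-27 against Control Cux2 ran from -0.18 to 1.84 and Pla2g4e from -0.12 to 2.22.

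The rule gave 26 genes with TMM and 15 with a ratio of at least 3; lower limits of 10 and 40 gave 57 and 45, and keeping the prefixes 54. Chosen after seeing the data, leaving out Enpp2, which is also on the choroid plexus list, turned the summed TPM of the neocortical markers outside the 52, PIA 2 minus Control 2, from -9.4 to 116.1.

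With the replicate block 3, 4 and 3 genes were called, 0 of the 52 among them, and the median over the 52 was 1.50, -0.06 and 1.50. The replicate numbers share no stated animal or day: over the listed genes, the differences of replicate 1 from replicate 2 correlated at -0.227 between PIA and PIA+IL-27, 0.15 between PIA and Control and 0.0579 between PIA+IL-27 and Control. The numbers were therefore not taken to pair the libraries.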
